A study of Homo sapiens with 12 samples.

Results

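Albumin (ALB, ENSG00000163631), alpha-fetoprotein (AFP, ENSG00000081051), transthyretin (TTR, ENSG00000118271) and retinol-binding protein 4 (RBP4, ENSG00000138207), 4 plasma proteins secreted by liver cells, were followed at the level of their messenger RNA in HepG2 cells kept in 4 media. They were taken by gene symbol from a table of 10940 genes, all 4 were present in it, and all 4 passed the filter on low counts. HepG2 is an established wild-type line grown from a human liver tumour, so it stands for 1 tumour-derived hepatocyte-like clone and not for normal liver. Plasmax-TE+Fe was Plasmax made without trace elements and then supplied with iron, Plasmax-TE was Plasmax made without trace elements, Plasmax was the complete medium, whose nutrients follow human plasma, and EMEM was the medium in which the line was maintained. Cells of all 4 media were seeded in EMEM, switched after 24 h, refed after 48 h and collected 96 h after the switch, and serum (fetal bovine, heat-inactivated) made up 10% of every medium. Each medium had 3 libraries, 12 in all.

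Albumin is the main protein of adult plasma, where it holds water in the circulation and carries fatty acids, metals and drugs. AFP is its fetal relative, made by fetal liver, silenced after birth and often switched on again in liver cancer. Transthyretin carries thyroxine and also binds the complex of RBP4 with retinol, the form in which liver sends vitamin A to other tissues, so that TTR and RBP4 travel together in plasma. The genes ALB and AFP lie next to each other on chromosome 4, with AFM, another albumin relative, as the next protein-coding gene, whereas TTR is on chromosome 18 and RBP4 on chromosome 10.

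Messenger RNA was read from the 3′ end, and levels are given in CPM, the counts of a gene scaled to an equal total in every library. Total counts ran from 1562125 to 2384090 per library, and the lowest count of any of the 4 genes was 319, for TTR in Plasmax replicate 1, where 204 CPM had a Wilson 95% interval of 183 to 228 CPM (counting error only). In 3 of the media, 1 library stood apart from its own medium. A chi-square per degree of freedom over genes, which is 1 when a pair of libraries differs by counting noise only, was 6.04 to 7.76 for pairs with Plasmax-TE+Fe replicate 2, Plasmax-TE replicate 1 or Plasmax replicate 3, and 2.37 to 3.70 for all other pairs of the same medium. All 4 genes had their highest value of the medium in Plasmax-TE replicate 1 and likewise in Plasmax-TE+Fe replicate 2. The labels give these libraries the consecutive numbers 87 and 88. Whether libraries that share a medium were separate cultures is not stated, and the spread on which each p-value rests may therefore be technical. In bulk RNA, fewer cells making a transcript and less of it per cell cannot be told apart.

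All 11 hepatocyte markers were measured, although SERPINA1, alpha-1 antitrypsin, averaged only 17.2 to 31.6 CPM per medium. The summed level of the 11, most of it from AHSG, APOA2 and APOB, was 19208 to 20708 CPM in Plasmax-TE+Fe, 22303 to 23998 in Plasmax-TE, 16794 to 19193 in Plasmax and 30726 to 35382 in EMEM. The members did not all go the way of the sum, since the keratin gene KRT18 averaged 1135 ± 137 CPM in Plasmax and 503 ± 17.8 in EMEM, and KRT8 643 ± 118 and 410.0 ± 17.0 (SD, n = 3 each). The 5 endothelial markers were not analysed here, for want of counts, and the 2 of 6 fibroblast or stellate markers with counts summed to 4.87 to 9.93 CPM in Plasmax-TE+Fe, 2.28 to 8.37 in Plasmax-TE, 3.14 to 10.97 in Plasmax and 17.4 to 26.4 in EMEM. Of 5 leukocyte markers 3 were measured (LYZ, CD14 and CD68), summing to 1011 to 1725 CPM in Plasmax-TE+Fe, 793 to 1672 in Plasmax-TE, 1231 to 1687 in Plasmax and 2115 to 2502 in EMEM. Nearly all of that sum was LYZ, with means of 1328 to 2329 CPM per medium, whereas CD14 and CD68 averaged 1.95 to 5.45 CPM. PTPRC, which defines leukocytes, and CD3E, which marks T cells, were not analysed here.

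The sequences just before the starts of ALB, AFP and RBP4 are shown because ALB and AFP, neighbours in the genome, had the same order of levels over the 4 media while RBP4 had another. They are the 250 bases upstream of the start in RefSeq (build GRCh38.p14), given 5′ to 3′ on the strand of the gene. ALB covers chr4:73404037-73404286 (plus strand), AFP chr4:73435971-73436220 (plus strand) and RBP4 chr10:93601236-93601485 (minus strand, the one of 3 listed starts that lies nearest to the start of the main annotated transcript). TTR had no entry in the set of promoter windows used, so its sequence could not be shown or searched. Capitals mark matches on either strand to 6 motifs named below.
ALB: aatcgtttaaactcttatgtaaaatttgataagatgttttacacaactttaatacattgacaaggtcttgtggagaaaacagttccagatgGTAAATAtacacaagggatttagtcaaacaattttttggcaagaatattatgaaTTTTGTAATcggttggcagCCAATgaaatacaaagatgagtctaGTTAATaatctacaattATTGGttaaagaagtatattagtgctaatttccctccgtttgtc
AFP: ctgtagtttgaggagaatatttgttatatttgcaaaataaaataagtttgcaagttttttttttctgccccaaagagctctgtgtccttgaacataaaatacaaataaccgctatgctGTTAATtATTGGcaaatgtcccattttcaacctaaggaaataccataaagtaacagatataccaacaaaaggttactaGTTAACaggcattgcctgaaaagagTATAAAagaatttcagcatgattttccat
RBP4: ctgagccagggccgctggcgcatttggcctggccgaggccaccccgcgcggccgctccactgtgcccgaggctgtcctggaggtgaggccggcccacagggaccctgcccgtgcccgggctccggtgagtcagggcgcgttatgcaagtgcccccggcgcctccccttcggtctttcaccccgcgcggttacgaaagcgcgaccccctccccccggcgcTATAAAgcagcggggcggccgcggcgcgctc

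The motifs searched, on both strands, were the TATA box TATAAA, the CCAAT box CCAAT, a pair of related motifs known from liver promoters (GTTAAT and GTTAAC), a C/EBP motif (TTNNGNAAT, N being any base) and a forkhead motif (TNTTTAC), and no 2 of their matches overlapped. ALB held 2 CCAAT boxes, the motif GTTAAT at 61 to 56 bases before the start, a C/EBP motif at 105 to 97 and a forkhead motif at 159 to 153. AFP held TATAAA at 29 to 24 bases before the start, 1 CCAAT box, GTTAAT at 132 to 127 and GTTAAC at 54 to 49. RBP4 held TATAAA at 31 to 26 and none of the other motifs. Over all 35116 promoter windows of this length, the share with a match was 10.7% for TATAAA, 32.0% for CCAAT, 6.23% for GTTAAT, 2.31% for GTTAAC, 9.85% for the C/EBP motif and 9.58% for the forkhead motif. The GC content was 30% in ALB, 31.6% in AFP and 74.8% in RBP4. A match is a run of letters and no evidence of binding.

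Together the 4 transcripts took 1.04% ± 0.0980 of all counts in Plasmax-TE+Fe, 1.43% ± 0.10 in Plasmax-TE, 0.572% ± 0.0290 in Plasmax and 2.52% ± 0.229 in EMEM (SD, n = 3 each). ALB alone took 0.774%, 1.07%, 0.405% and 1.79% in the same order of media. The summed share of these 4 transcripts, most of it ALB, was thus lowest in complete Plasmax and highest in the maintenance medium. Libraries of different media did not overlap in this sum. Taken singly, RBP4 had its highest mean in Plasmax-TE and TTR its lowest in Plasmax-TE+Fe.

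**Figure D1:**
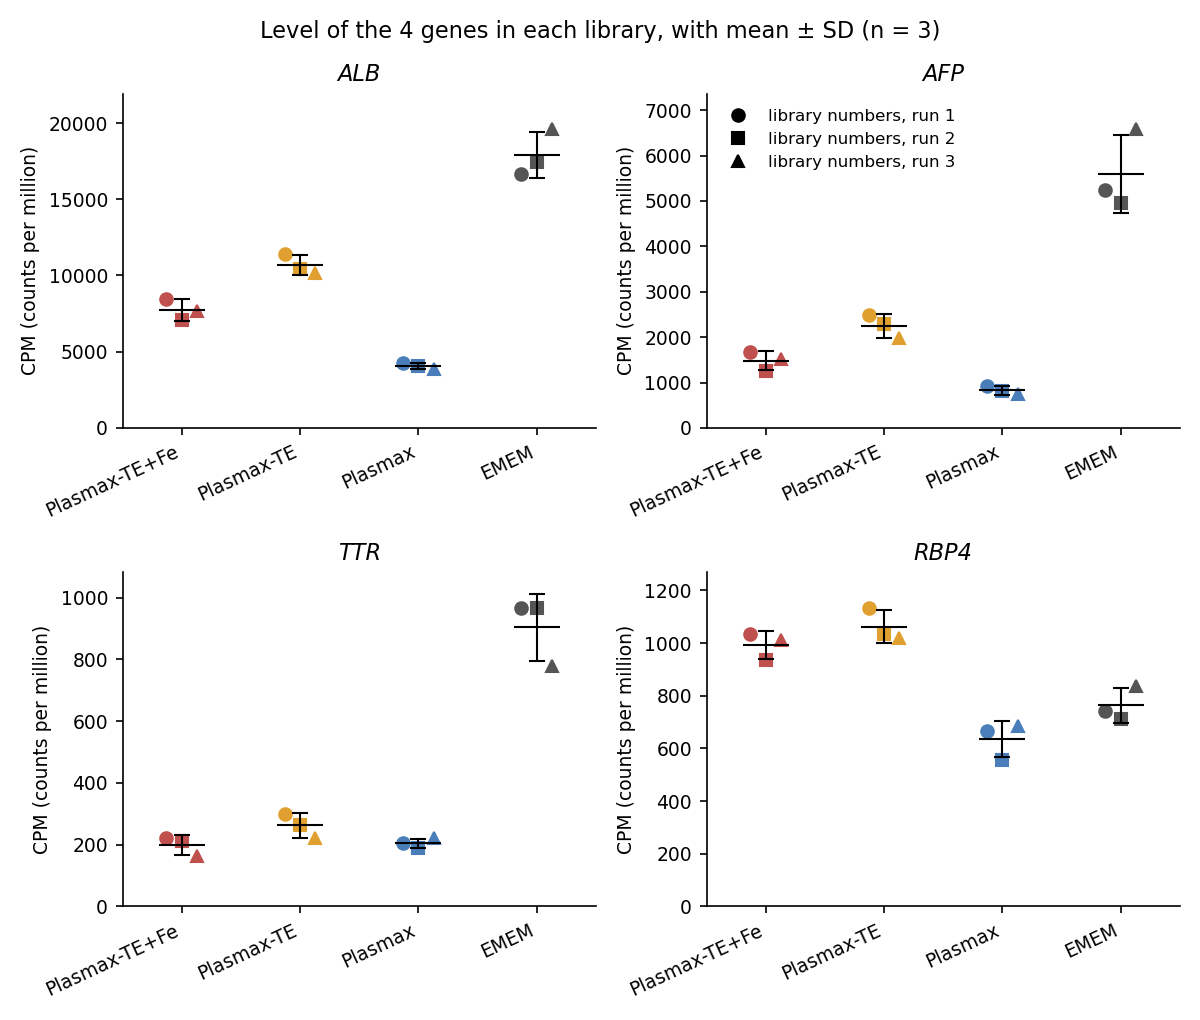
Level of ALB, AFP, TTR and RBP4 in each of the 12 libraries, in CPM on a linear axis from 0, by medium; marker shapes show the run of consecutive library numbers and bars the mean ± SD of 3 libraries. ALB and AFP step up from Plasmax through Plasmax-TE+Fe and Plasmax-TE to EMEM, TTR is high in EMEM only, and RBP4 is highest in the media without the full set of trace elements.

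A gene was called when its adjusted p in the quasi-likelihood test of edgeR, with Benjamini-Hochberg adjustment over all 10459 genes tested, was under 0.05. In Plasmax against EMEM, ALB, AFP and TTR were called lower and RBP4 was not called, where 21.4% of all genes were called, 9.9% as higher and 11.5% as lower. That split of 1035 higher and 1198 lower genes turned to 1238 higher and 1021 lower when libraries were scaled by their size alone. In Plasmax-TE against Plasmax, ALB, AFP and RBP4 were called higher and TTR was not, against 11.2% of all genes called, 5.61% as higher and 5.63% as lower. Plasmax-TE+Fe against Plasmax gave the same 3 genes as higher, where 1.2% of all genes were called, 0.507% as higher and 0.698% as lower.

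Against EMEM, both media without the full set of trace elements had ALB, AFP and TTR called lower and RBP4 not called. In Plasmax-TE against EMEM 4.81% of all genes were called, 1.62% as higher and 3.19% as lower. In Plasmax-TE+Fe against EMEM it was 9.65%, with 3.67% higher and 5.98% lower, and this split of 384 higher and 625 lower genes moved to 521 and 531 when libraries were scaled by their size alone. In Plasmax-TE+Fe against Plasmax-TE, 0 of the 4 genes were called by edgeR's quasi-likelihood test, where 27 genes (0.258%) were called in all, 0.0861% as higher and 0.172% as lower. There 3 of the 4 (ALB, AFP and TTR) had an unadjusted p under 0.05, and 2 (ALB and AFP) were called by DESeq2. With the run of library numbers as a block (below), the counts of called genes became 152 for Plasmax-TE+Fe against Plasmax-TE, 829 instead of 503 for Plasmax-TE against EMEM and 1569 instead of 1009 for Plasmax-TE+Fe against EMEM. All of these comparisons share libraries with one another.

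ALB followed the media in 4 separate steps. Its level was 7701, 8472 and 7050 CPM in Plasmax-TE+Fe, 11427, 10412 and 10183 CPM in Plasmax-TE, 4241, 4053 and 3846 CPM in Plasmax, and 16663, 17443 and 19590 CPM in EMEM. The order was EMEM, Plasmax-TE, Plasmax-TE+Fe and Plasmax from high to low, and no library overlapped with those of a neighbouring medium. For any gene, libraries without overlap were common, at 39.8% of all genes in Plasmax against EMEM, 30.4% in Plasmax-TE against Plasmax, 25.3% in Plasmax-TE against EMEM, 28.8% in Plasmax-TE+Fe against EMEM, 18.4% in Plasmax-TE+Fe against Plasmax and 13.4% in Plasmax-TE+Fe against Plasmax-TE. Means were 7741 ± 711, 10674 ± 662 and 4047 ± 197 CPM in the 3 Plasmax media in that order of naming, and 17899 ± 1515 CPM in EMEM (SD, n = 3 each).

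ALB fell by 2.20 ± 0.11 (SE) on the log2 scale in Plasmax against EMEM, which is 4.59-fold lower (quasi-likelihood test of edgeR, Benjamini-Hochberg adjusted p = 1.1e-10), and ranked 137 of 10459 genes by absolute change. It rose 2.65-fold in Plasmax-TE against Plasmax (log2 1.41 ± 0.11, edgeR adjusted p = 3.3e-07) and 1.91-fold in Plasmax-TE+Fe against Plasmax (log2 0.94 ± 0.11, edgeR adjusted p = 7.6e-05). Against EMEM it was lower in both, at a log2 fold change of -0.79 ± 0.11 in Plasmax-TE (edgeR adjusted p = 0.00018) and -1.26 ± 0.11 in Plasmax-TE+Fe (edgeR adjusted p = 3.3e-07). On the log2 scale of CPM, Plasmax-TE covered 65.3% of the distance of ALB between Plasmax and EMEM, and Plasmax-TE+Fe covered 43.5%. Leaving out the 3 libraries that stood apart together, a setting chosen after seeing the data, the rise of ALB against Plasmax was 1.39 in Plasmax-TE and 0.90 in Plasmax-TE+Fe, both still called.

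AFP had the same order of media as ALB and, as a fold between its highest and lowest medium, the widest range of the 4 genes. It stood at 1515, 1682 and 1252 CPM in Plasmax-TE+Fe, at 2493, 2285 and 1976 CPM in Plasmax-TE, at 933, 812 and 745 CPM in Plasmax and at 5237, 4960 and 6577 CPM in EMEM. Again no library overlapped with those of a neighbouring medium, although the gap between Plasmax-TE+Fe and Plasmax-TE was narrow, with 1682 CPM as the highest value of the first and 1976 CPM as the lowest of the second. The means were 1483 ± 217 CPM in Plasmax-TE+Fe, 2251 ± 260 in Plasmax-TE, 830 ± 95.6 in Plasmax and 5591 ± 865 in EMEM (SD, n = 3 each).

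The fall of AFP in Plasmax against EMEM was 7.0-fold (log2 -2.81 ± 0.15, quasi-likelihood test of edgeR, Benjamini-Hochberg adjusted p = 1.1e-10), which ranked 66 of 10459 genes by absolute change. In Plasmax-TE against Plasmax it rose 2.72-fold (log2 1.44 ± 0.14, edgeR adjusted p = 3.3e-06), and in Plasmax-TE+Fe against Plasmax 1.79-fold (log2 0.84 ± 0.14, edgeR adjusted p = 0.0036). Against EMEM the log2 fold change of AFP was -1.36 ± 0.14 in Plasmax-TE (edgeR adjusted p = 6.2e-06) and -1.97 ± 0.15 in Plasmax-TE+Fe (edgeR adjusted p = 2.4e-08). Plasmax-TE covered 52.4% of the log2 distance between Plasmax and EMEM for AFP, and Plasmax-TE+Fe covered 30.3%. Without those 3 libraries, the rise of AFP against Plasmax was 1.36 in Plasmax-TE and 0.73 in Plasmax-TE+Fe, both called.

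TTR separated EMEM from everything else. Its level was 163, 221 and 212 CPM in Plasmax-TE+Fe, 301, 264 and 222 CPM in Plasmax-TE, 204, 189.6 and 219.9 CPM in Plasmax, and 967, 966 and 778 CPM in EMEM. Every library of the Plasmax media was at or below 301 CPM and every EMEM library at or above 778 CPM. The means were 199 ± 31.5, 262 ± 39.4 and 205 ± 15.2 CPM in Plasmax-TE+Fe, Plasmax-TE and Plasmax, and 904 ± 109 CPM in EMEM (SD, n = 3 each), and the libraries of Plasmax-TE+Fe and Plasmax overlapped.

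Against EMEM, TTR fell 4.56-fold in Plasmax (log2 -2.19 ± 0.16, quasi-likelihood test of edgeR, Benjamini-Hochberg adjusted p = 1.1e-08), 3.57-fold in Plasmax-TE (log2 -1.84 ± 0.15, edgeR adjusted p = 6.0e-07) and 4.73-fold in Plasmax-TE+Fe (log2 -2.24 ± 0.16, edgeR adjusted p = 1.3e-08). In Plasmax-TE against Plasmax its log2 fold change was 0.35 ± 0.15, with a 95% interval of 0.0038 to 0.71 and an edgeR adjusted p of 0.14. The 2 sets of libraries missed overlapping by little, at 221.9 CPM for the lowest in Plasmax-TE and 219.9 CPM for the highest in Plasmax. In Plasmax-TE+Fe against Plasmax the log2 fold change was -0.05 ± 0.15, interval -0.40 to 0.30, edgeR adjusted p = 0.92. The sign of that value turned to 0.055 without Plasmax-TE+Fe replicate 1 and to 0.040 without Plasmax replicate 3. Plasmax-TE covered 16.3% of the log2 distance of TTR between Plasmax and EMEM and Plasmax-TE+Fe -2.47%, that is, slightly to the far side of Plasmax.

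RBP4 ordered the media differently from the other 3 genes. It had 1013, 1033 and 934 CPM in Plasmax-TE+Fe, 1134, 1034 and 1020 CPM in Plasmax-TE, 667, 557 and 685 CPM in Plasmax, and 742, 711 and 838 CPM in EMEM. The order was Plasmax-TE, Plasmax-TE+Fe, EMEM and Plasmax from high to low, and only the libraries of the first pair in that order overlapped. Its means were 993 ± 52.1 CPM in Plasmax-TE+Fe, 1063 ± 62.0 in Plasmax-TE, 636 ± 69.1 in Plasmax and 764 ± 65.8 in EMEM (SD, n = 3 each).

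RBP4 rose 1.67-fold in Plasmax-TE against Plasmax (log2 0.74 ± 0.13, quasi-likelihood test of edgeR, Benjamini-Hochberg adjusted p = 0.0016) and 1.56-fold in Plasmax-TE+Fe against Plasmax (log2 0.64 ± 0.13, edgeR adjusted p = 0.020). The second call was lost without Plasmax-TE+Fe replicate 1 (edgeR adjusted p = 0.086), without Plasmax replicate 1 (0.053), without Plasmax replicate 2 (0.19) and when only the 6 libraries compared were fitted (0.075). Its values against EMEM did not pass the test. They were -0.31 ± 0.13 on the log2 scale in Plasmax (interval -0.62 to -0.0024, edgeR adjusted p = 0.10), 0.43 ± 0.13 in Plasmax-TE (interval 0.12 to 0.74, edgeR adjusted p = 0.073) and 0.33 ± 0.13 in Plasmax-TE+Fe (interval 0.018 to 0.64, edgeR adjusted p = 0.13). Without Plasmax replicate 3 the value in Plasmax against EMEM was -0.40, with an edgeR adjusted p of 0.047, and that in Plasmax-TE against EMEM was 0.43, with an edgeR adjusted p of 0.044. When the run of library numbers, whose libraries deviated together in these comparisons, was a block, Plasmax-TE against EMEM gave 0.43 (edgeR adjusted p = 0.013) and Plasmax-TE+Fe against EMEM 0.33 (edgeR adjusted p = 0.041). With the replicate number as a block, Plasmax-TE against EMEM gave 0.43 (edgeR adjusted p = 0.080). Without the 3 libraries that stood apart, all 3 values against EMEM passed the test, at -0.41 in Plasmax (edgeR adjusted p = 0.00999), 0.42 in Plasmax-TE (0.018) and 0.33 in Plasmax-TE+Fe (0.041).

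**Figure D2:**
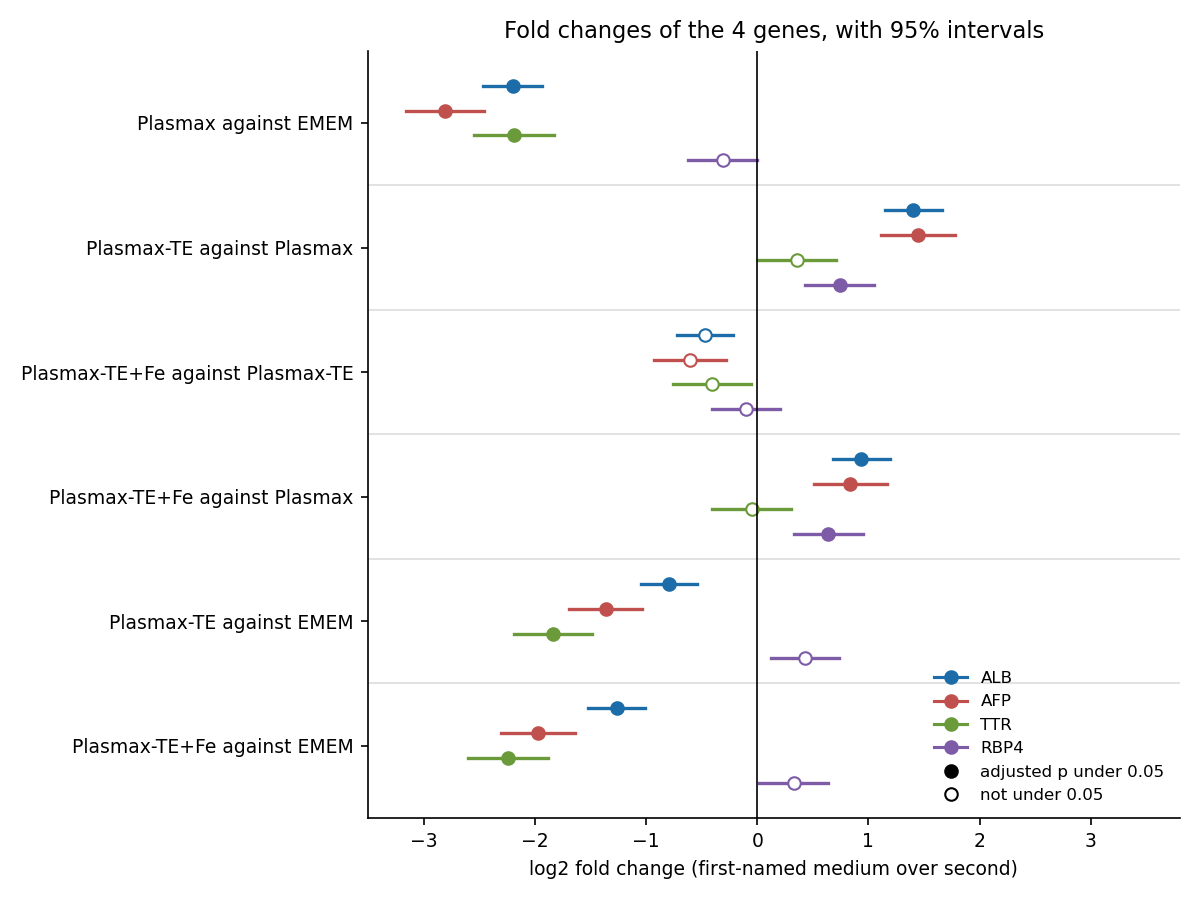
Log2 fold changes of the 4 genes in the 6 comparisons (first-named medium over the second) from edgeR's quasi-likelihood model, with 95% intervals; filled points had an adjusted p under 0.05. ALB and AFP lie on the same side of 0 in each comparison, TTR points are filled only against EMEM, and the RBP4 points are filled only in the comparisons of Plasmax-TE and Plasmax-TE+Fe with Plasmax.

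Iron supplied to the medium without trace elements was the only one of the 6 contrasts in which none of the 4 genes passed the test. Only 27 of all 10459 genes tested (0.258%) passed it there, so the lack of a call does not set these 4 genes apart. In Plasmax-TE+Fe against Plasmax-TE the log2 fold change of ALB was -0.47 ± 0.11 (interval -0.72 to -0.22, quasi-likelihood test of edgeR, Benjamini-Hochberg adjusted p = 0.074), and that of AFP was -0.61 ± 0.14 (interval -0.93 to -0.28, edgeR adjusted p = 0.074). TTR had -0.41 ± 0.15 (interval -0.76 to -0.055, edgeR adjusted p = 0.38) and RBP4 -0.10 ± 0.13 (interval -0.41 to 0.21, edgeR adjusted p = 0.89). The libraries of both media did not overlap for ALB, AFP and TTR, as for 13.4% of all genes, and overlapped for RBP4. For TTR they missed overlapping by little, at 221.2 CPM for the highest in Plasmax-TE+Fe and 221.9 CPM for the lowest in Plasmax-TE.

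The call on ALB and AFP in that comparison changed with the model. The labels number the libraries consecutively from 85 to 96 in 3 runs of 4, each with 1 library per medium. Here the libraries of a run deviated together over all genes (r = 0.53, 0.22 and 0.38). The run with r = 0.53 holds Plasmax-TE+Fe replicate 2 and Plasmax-TE replicate 1, both of which stood apart from their media. With the run as a block, ALB gave -0.47 with an edgeR adjusted p of 0.0091 and AFP -0.62 with an edgeR adjusted p of 0.0092. Within the runs the log2 difference of ALB was -0.43, -0.56 and -0.40, that of AFP -0.57, -0.87 and -0.38, that of TTR -0.44, -0.32 and -0.45 and that of RBP4 -0.13, -0.15 and -0.01. ALB, AFP and TTR were thus lower with iron in 3 of 3 runs, whether or not they were called. RBP4 had the same sign in each run, but at only -0.01 in 1 of them, and its libraries overlapped between the media. How many of all genes had 1 sign in 3 of 3 runs was not counted, in this or any other comparison. Over 24 alternative settings the edgeR, DESeq2 or limma adjusted p ranged from 0.0091 to 0.60 for ALB, which was called in 7, and from 0.0092 to 0.57 for AFP, which was called in 4. Leaving out Plasmax-TE+Fe replicate 2 gave edgeR adjusted p-values of 0.048 for ALB and 0.030 for AFP, and leaving out Plasmax replicate 3 gave 0.039 for ALB. Leaving out Plasmax-TE+Fe replicate 2 and Plasmax-TE replicate 1 together, ALB had -0.49 (edgeR adjusted p = 0.079) and AFP -0.63 (edgeR adjusted p = 0.061). With Plasmax replicate 3 left out as well, both were called, ALB at -0.49 (edgeR adjusted p = 0.013) and AFP at -0.63 (edgeR adjusted p = 0.012), and the count of called genes was 241 instead of 27.

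Within the other comparisons, every run gave the same sign as the pooled value for ALB, AFP and RBP4. For ALB the within-run log2 differences ran from -2.35 to -1.97 in Plasmax against EMEM and from 1.36 to 1.43 in Plasmax-TE against Plasmax. For AFP the corresponding ranges were -3.14 to -2.49 and 1.41 to 1.49. TTR had 0.12, 0.16 and -0.44 in the 3 runs of Plasmax-TE+Fe against Plasmax, the only mixed signs among the 4 genes and 6 comparisons.

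Whether the genes moved by equal factors was asked with ratios of their counts within a library, which do not depend on how libraries are scaled. Only the change of a ratio between media is read here, not its size. All 6 ratios differed among the 4 media (exact permutation test of the medium labels over 12 libraries, with Benjamini-Hochberg adjustment over the 6 ratios). The ratio of ALB to AFP averaged 5.25 ± 0.332 in Plasmax-TE+Fe, 4.76 ± 0.337 in Plasmax-TE, 4.90 ± 0.320 in Plasmax and 3.23 ± 0.272 in EMEM (SD, n = 3 each; exact p = 0.0055, adjusted p = 0.0076). The libraries of the 3 Plasmax media overlapped at 4.54 to 5.63, and all of them lay above the EMEM libraries, at 2.98 to 3.52. AFP was therefore relatively more abundant in EMEM, beside albumin, than in any Plasmax medium.

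The ratio of ALB to TTR split the media another way. It was 39.6 ± 7.14 in Plasmax-TE+Fe and 41.1 ± 4.20 in Plasmax-TE, and 19.9 ± 2.09 in Plasmax and 20.2 ± 4.37 in EMEM (SD, n = 3 each; exact permutation p = 0.0063, adjusted p = 0.0076). The libraries of the first pair of media, at 33.2 to 47.3, did not overlap with those of the second, at 17.5 to 25.2. ALB and TTR had thus fallen by similar factors in Plasmax against EMEM, whereas in the media without the full set of trace elements ALB stood higher relative to TTR. AFP to TTR averaged 7.61 ± 1.71 in Plasmax-TE+Fe, 8.62 ± 0.311 in Plasmax-TE, 4.08 ± 0.618 in Plasmax and 6.33 ± 1.84 in EMEM (exact permutation p = 0.0095, adjusted p = 0.0095, n = 3 each). Without the 3 libraries that stood apart the adjusted exact permutation p of AFP to TTR was 0.12, and those of the 5 other ratios stayed under 0.05.

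The ratio of TTR to its partner in retinol transport, RBP4, was 0.201 ± 0.0352 in Plasmax-TE+Fe, 0.246 ± 0.0252 in Plasmax-TE, 0.322 ± 0.0171 in Plasmax and 1.20 ± 0.234 in EMEM (SD, n = 3 each; exact permutation p = 0.00013, adjusted p = 0.00039). The libraries of Plasmax-TE+Fe and Plasmax-TE, at 0.161 to 0.265, lay below those of Plasmax, at 0.306 to 0.340, which lay below those of EMEM, at 0.929 to 1.36. The transcripts of this carrier pair therefore did not keep a fixed proportion between media. ALB to RBP4 averaged 7.78 ± 0.363, 10.0 ± 0.0553, 6.42 ± 0.830 and 23.5 ± 1.03 in Plasmax-TE+Fe, Plasmax-TE, Plasmax and EMEM (exact permutation p = 6.5e-05, the smallest that 369600 arrangements can give, adjusted p = 0.00039, n = 3 each). AFP to RBP4 averaged 1.49 ± 0.145, 2.12 ± 0.155, 1.31 ± 0.199 and 7.29 ± 0.486 in the same media (exact permutation p = 0.00026, adjusted p = 0.00052, n = 3 each).

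**Figure D3:**
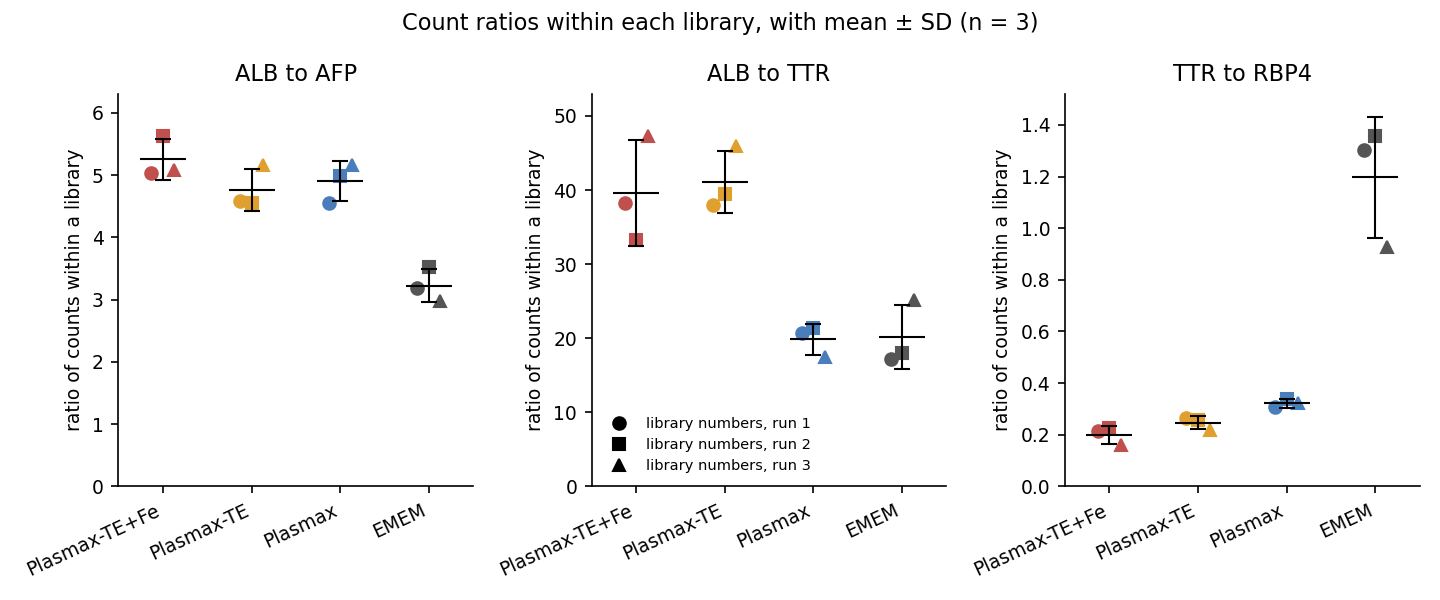
Ratio of ALB to AFP, of ALB to TTR and of TTR to RBP4 counts within each of the 12 libraries, on linear axes from 0, by medium; marker shapes show the run of library numbers and bars the mean ± SD of 3 libraries. EMEM stands alone in the ratios of ALB to AFP and of TTR to RBP4 (means of 3.23 and 1.20), and Plasmax and EMEM sit together, at means of 19.9 and 20.2, in the ratio of ALB to TTR.

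The likeness of 2 patterns was measured as Pearson's r of log2 CPM over the 12 libraries, which mostly reflects the 4 medium levels that all genes of a library share, and is given as a description. AFP ranked 2 of 10458 genes by likeness to ALB (r = 0.98) and ALB ranked 1 by likeness to AFP. TTR ranked 489 by likeness to ALB (r = 0.81) and 171 by likeness to AFP (r = 0.89), and RBP4 ranked 2643 (r = 0.43) and 3522 (r = 0.28). Between TTR and RBP4 r was -0.12. With the medium means removed, r over the 12 libraries was 0.90 between ALB and AFP. It was -0.42 between ALB and TTR and 0.62 between ALB and RBP4. ALB and AFP thus varied together also among libraries of 1 medium. The libraries that stood apart were kept in, and how many other gene pairs reach such an r was not counted.

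Among the 5 genes most like ALB were AFP, OBSL1, SULT2A1, a hydroxysteroid sulfotransferase, and ADH5, with r of 0.98 each. For AFP they were ALB, SULT2A1, GLUL, glutamine synthetase, COBLL1 and OBSL1, with r from 0.97 to 0.98. For TTR they were APOA2, an apolipoprotein of high-density lipoprotein (r = 0.98), the sodium channel gene SCN9A (0.97), the small GTPase gene RAB17 (0.97), ENSG00000279117 (0.96) and SCD, stearoyl-CoA desaturase (0.96). For RBP4 they were the ribosomal protein gene RPL10A (0.93), RPS28P7 (0.91), OXA1L (0.91), PSD4 (0.91) and RBM3, a cold-inducible RNA-binding protein (0.90). RPS28P7 is a pseudogene copy of RPS28, so its counts are uncertain.

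The other plasma carriers, like the 4 genes, did not all move the same way. Of 10 measured carriers in a list of 15, 3 were called higher and 5 lower in Plasmax against EMEM (median log2 -0.75, all genes -0.01), against 9.9% of all genes called higher and 11.5% lower. There were 4 higher and 0 lower in Plasmax-TE against Plasmax (median 0.57, all genes 0.02), against 5.61% and 5.63% of all genes. TF, transferrin, the iron carrier, fell by 2.05 ± 0.16 in Plasmax against EMEM and rose by 0.84 ± 0.16 in Plasmax-TE against Plasmax on the log2 scale, as ALB and AFP did. CP, ceruloplasmin, a copper-containing ferroxidase, had -1.99 ± 0.26 and 0.95 ± 0.26, and AHSG, fetuin A, had -1.25 ± 0.16 and a value of 0.46 ± 0.16 that did not pass. HP, haptoglobin, the haemoglobin scavenger, rose in both, by 1.69 ± 0.32 and 1.11 ± 0.27, and its close copy HPR could share its reads. SERPINA7, thyroxine-binding globulin, the other carrier of the hormone that TTR binds, fell by 1.13 ± 0.21 and rose by 1.01 ± 0.21 (chosen after its values were seen).

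In the 4 remaining comparisons, 0 of the 10 carriers were called in Plasmax-TE+Fe against Plasmax-TE by edgeR, DESeq2 or limma-voom, and 3 had an unadjusted p under 0.05 in edgeR. The same held there for all 71 tested genes of the 7 related lists described here, with 0 called by each tool and 14 at an unadjusted p under 0.05. Of all genes edgeR called 0.258% in that comparison. Without the 3 libraries that stood apart, 1 carrier and 2 liver transcription factors were called there, all lower, where 241 genes were called in all. Plasmax-TE+Fe against Plasmax had 2 carriers higher, CP at 1.10 ± 0.26 and TF at 0.75 ± 0.16, where 0.507% of all genes were higher. Plasmax-TE against EMEM had 4 carriers higher and 3 lower, against 1.62% and 3.19% of all genes. Plasmax-TE+Fe against EMEM had 3 higher and 4 lower, against 3.67% and 5.98% of all genes. The other members of the albumin family, AFM and GC, were not analysed here.

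Genes that handle the cargo of RBP4 and TTR were measured in part. Of 31 genes of retinoid handling 12 were measured and 11 tested, of which 1 was called higher and 5 lower in Plasmax against EMEM (median log2 -0.39), against 9.9% of all genes called higher and 11.5% lower. RETSAT, retinol saturase, had a log2 fold change of -1.09 ± 0.19 in Plasmax against EMEM and of 0.83 ± 0.19 in Plasmax-TE against Plasmax, while RBP4 had -0.31 and 0.74. RXRA, the partner receptor of retinoic acid receptors, fell by 0.67 ± 0.15 and ALDH1A1, which makes retinoic acid, by 0.88 ± 0.23 in Plasmax against EMEM. In Plasmax-TE against Plasmax 1 gene of the list was higher and 1 lower (median 0.30), beside 5.61% and 5.63% of all genes. In Plasmax-TE+Fe against Plasmax 1 gene of the list was lower, beside 0.698% of all genes.

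Of 14 genes of thyroid hormone handling 7 were measured and 6 tested. In Plasmax against EMEM 1 was called lower, SLC16A10, a transporter of aromatic amino acids and thyroid hormone, at -1.46 ± 0.25, and 1 was called higher, beside 11.5% of all genes lower and 9.9% higher. In Plasmax-TE against Plasmax 2 were higher, SLC16A10 at 1.02 ± 0.26 and the thyroid hormone receptor gene THRA at 0.96 ± 0.25, where 5.61% of all genes were higher. SLC16A10 was the only one of the 6 called in Plasmax-TE+Fe against EMEM, at -1.13, where 5.98% of all genes were lower. KLF9, a target of the hormone, had 0.17 and -0.58 in the first and second comparison and was not called.

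Transcription factors known for their work on liver promoters, including some whose motifs stand in the ALB and AFP sequences above, were measured for 24 of 27. In Plasmax against EMEM 1 was called higher and 8 lower (median -0.42), against 9.9% of all genes called higher and 11.5% lower. There were 7 higher and 0 lower in Plasmax-TE against Plasmax (median 0.31), against 5.61% and 5.63% of all genes. NR1H4, the bile acid receptor, had -1.43 ± 0.21 and 1.32 ± 0.21 in these comparisons, FOXA1, a forkhead factor, -1.39 ± 0.28 and 1.42 ± 0.28, FOXA3 -0.93 ± 0.18 and 0.68 ± 0.18, and ONECUT2 -0.96 ± 0.17 and 0.62 ± 0.18. CEBPA, a C/EBP factor, had -1.51 ± 0.32 and 1.56 ± 0.32 (chosen after its values were seen). In Plasmax-TE+Fe against EMEM 6 were lower and 0 higher, against 5.98% and 3.67% of all genes. In the other 3 comparisons 0 of the 24 were called by edgeR, DESeq2 or limma-voom. At an unadjusted p under 0.05 in edgeR there were 5 in Plasmax-TE+Fe against Plasmax-TE, 7 in Plasmax-TE+Fe against Plasmax and 5 in Plasmax-TE against EMEM.

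The 4 genes listed as repressors of AFP were all measured, with 2 called higher and 1 lower in Plasmax against EMEM (against 9.9% of all genes called higher and 11.5% lower) and 0 higher and 2 lower in Plasmax-TE against Plasmax (against 5.61% and 5.63% of all genes). ZBTB20, which silences AFP in mouse liver after birth, rose by 1.67 ± 0.25 on the log2 scale in Plasmax against EMEM, and fell by 1.6 ± 0.25 in Plasmax-TE and by 1.06 ± 0.24 in Plasmax-TE+Fe against Plasmax. In the 2 other comparisons in which AFP was called, both lower, ZBTB20 did not pass the test, at 0.07 ± 0.27 in Plasmax-TE against EMEM (edgeR adjusted p = 0.93) and 0.61 ± 0.26 in Plasmax-TE+Fe against EMEM (edgeR adjusted p = 0.16). Its part in the levels of AFP was not tested. ZFHX3 had 0.48 ± 0.14 and -0.46 ± 0.14 in the first and second comparison, both called. ZHX2, known from mouse strains that keep AFP on in the adult, had -0.75 ± 0.20, called, and 0.53 ± 0.20, not called.

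Of 10 genes of fetal liver and liver cancer measured from a list of 12, 2 were called higher and 3 lower in Plasmax against EMEM (median 0.03), against 9.9% of all genes called higher and 11.5% lower. The counts were 3 higher and 1 lower in Plasmax-TE against Plasmax (median -0.02), against 5.61% and 5.63% of all genes. DLK1, a marker of fetal hepatoblasts, had -1.25 ± 0.14 and 0.91 ± 0.14, the imprinted gene PEG10 -1.48 ± 0.20 and 1.34 ± 0.20, and GPC3, glypican 3, -0.84 ± 0.13 and 0.49 ± 0.13. EPCAM had 0.62 ± 0.15, called, and -0.14 ± 0.15, not called. Plasmax-TE+Fe against Plasmax had DLK1 at 0.83 and PEG10 at 0.90 as its 2 called members, where 0.507% of all genes were higher.

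Of 9 genes of albumin recycling and uptake 6 were measured. FCGRT, the neonatal Fc receptor, which returns albumin to the circulation, fell by 1.00 ± 0.16 in Plasmax against EMEM and rose by 0.72 ± 0.16 in Plasmax-TE against Plasmax. AMN, part of the receptor complex with cubilin, had -1.56 ± 0.30 and 1.36 ± 0.31, and the endocytic adaptor DAB2 0.54 ± 0.22, not called, and -1.37 ± 0.23, called. The counts for the list were 0 higher and 2 lower in the first comparison (median -0.48), against 9.9% of all genes called higher and 11.5% lower, and 2 higher and 1 lower in the second (median 0.24), against 5.61% and 5.63% of all genes.

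**Figure D4:**
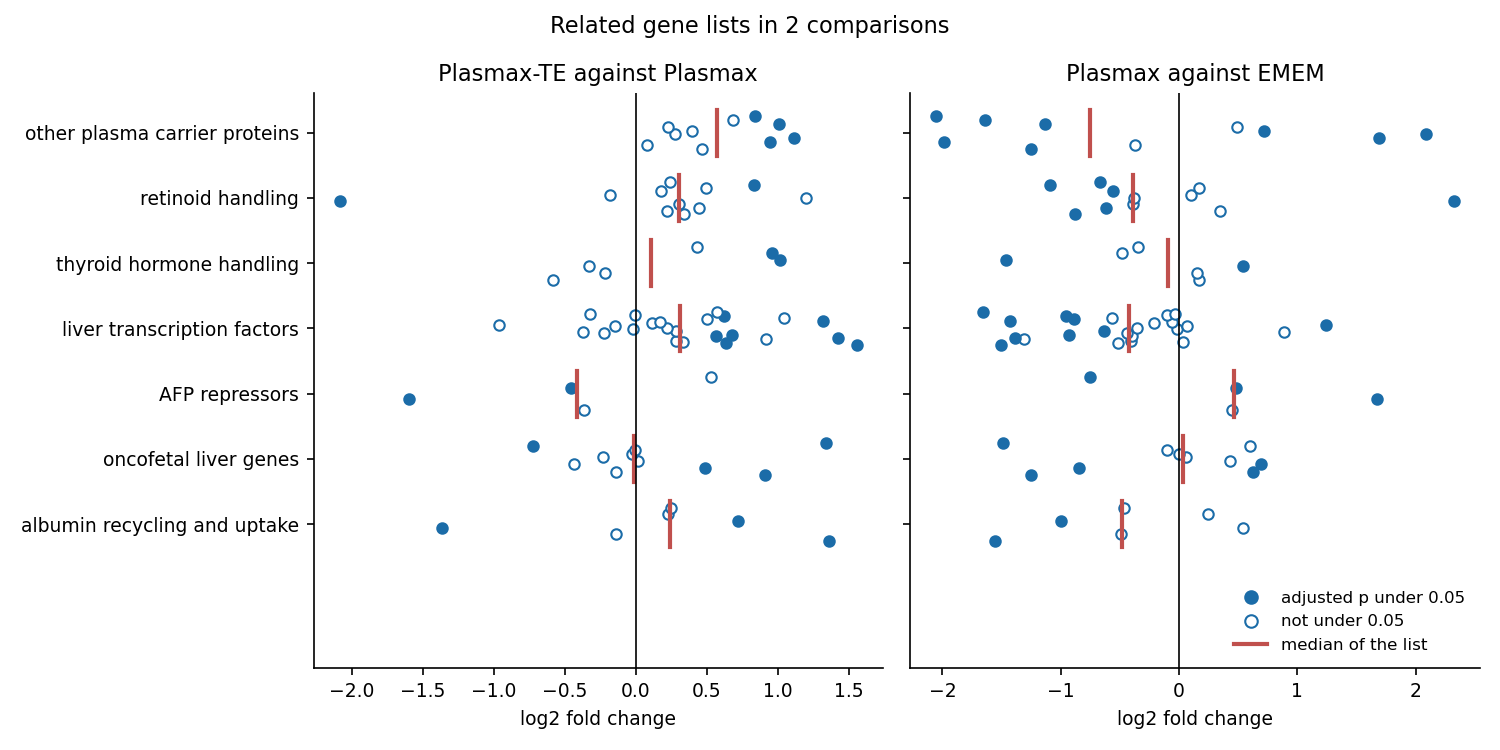
Log2 fold changes of the tested members of 7 lists of related genes in Plasmax-TE against Plasmax (left) and Plasmax against EMEM (right); filled points had an adjusted p under 0.05 in edgeR's quasi-likelihood test and red lines are list medians. Called liver transcription factors lie mostly below 0 in Plasmax against EMEM (8 of 9) and above 0 in Plasmax-TE against Plasmax (7 of 7).

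Of 5 markers of biliary cells 3 were measured (KRT19, SPP1 and SOX9), and their summed level was 506 to 899 CPM in Plasmax-TE+Fe, 443 to 633 in Plasmax-TE, 1214 to 1495 in Plasmax and 459 to 558 in EMEM. KRT19, the keratin of bile duct cells, averaged 199 ± 81.6 CPM in Plasmax-TE+Fe, 128 ± 30.8 in Plasmax-TE, 609 ± 130 in Plasmax and 122 ± 20.8 in EMEM (SD, n = 3 each). KRT7 and CFTR were not analysed here. On the log2 scale KRT19 rose by 2.27 ± 0.27 in Plasmax against EMEM and fell by 2.23 ± 0.27 in Plasmax-TE against Plasmax. In the first comparison 2 of the 3 were called higher, against 9.9% of all genes. In the second 2 of the 3 were called lower, against 5.63% of all genes. KRT19 was the only one called in both, as SOX9 did not pass in the first (0.37 ± 0.17, edgeR adjusted p = 0.13) nor SPP1 in the second (-0.75 ± 0.30, edgeR adjusted p = 0.12). In Plasmax-TE against EMEM, where ALB and AFP were called lower, 0 of the 3 were called by edgeR, against 4.81% of all genes. There 1 of the 3, SPP1, had an unadjusted p under 0.05. Among the fibroblast and leukocyte markers, PDGFRB (log2 -3.02) and LYZ (log2 -0.70) were lower in Plasmax against EMEM. The part of these changes in the levels of the 4 genes was not tested.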

How the data were processed

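The authors deposited whole-number counts for each gene from QuantSeq libraries, which read the 3′ end of messenger RNA, without normalization. Named in the submitters' processing notes are STAR 2.7.5b, featureCounts 1.6.3, cutadapt 1.16, FastQC 0.72, limma 3.40.6 and the build hg19 (GRCh37), while the annotation counted on was not given in the sources used here. Of 10994 entries, 54 repeated ones were dropped. Genes with low counts were already missing, since the third-highest library of every gene had at least 4.04 CPM, so a gene "not measured" may have been too low.

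The analysis used edgeR 4.0.16 in R 4.3.3 (filterByExpr at its defaults, which removed 481 genes and left 10459, TMM factors, and 1 quasi-likelihood fit of 4 media to 12 libraries, with 8 residual degrees of freedom). Tests were two-sided. A standard error is the size of the log2 fold change over the root of its F. CPM values use the total counts. Log2 count ratios between members were tested by exact permutation of the medium labels over all 12 libraries, since 3 libraries against 3 cannot go below an exact p of 0.1. On simulated counts with known changes and a single fixed spread, the fit found most changed genes with few false calls. The ratio test gave a small p on clearly separated made values and a larger one on values without a difference. Neither check included libraries that stood apart or runs that deviated together.

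The members and the lists were chosen with earlier results of these data known. Named are the 4 members, up to 4 measured members of each list with the lowest p in any comparison, and the 5 genes with the highest Pearson's r with each member. Some genes are not reported here, not every gene so named is described, and genes chosen after their values were seen are marked. Promoter windows are from RefSeq (GRCh38.p14), whose build differs from that of the counts.

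Alternatives were RLE factors, library size alone, library sizes without the 20 most abundant genes, DESeq2 1.42.0, limma-voom (limma 3.58.1), 10 counts in every library, no filter on low counts, a replicate block, a library-number block, each library left out, both Plasmax-TE+Fe replicate 2 and Plasmax-TE replicate 1 left out, these and Plasmax replicate 3 left out together (added after seeing the data), and only the 6 libraries compared. As a check of pairing, deviations from the medium means were correlated between libraries that share a number. By replicate number r was -0.43 to 0.17, over 0.1 in 4 of 18 pairs and in all 3 only for Plasmax-TE against EMEM. By run of library numbers (85 to 88, 89 to 92 and 93 to 96) r was 0.025 to 0.53, over 0.1 in 9 of 18 pairs and in all 3 for Plasmax-TE+Fe against Plasmax-TE, Plasmax-TE+Fe against EMEM and Plasmax-TE against EMEM. The labels do not say that a run is a batch.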

Additional observations from a re-analysis of the deposited data

How the results depend on the processing

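Of 576 values of the 4 genes under the alternatives, 546 kept their direction and side of the threshold, 24 became called, 4 lost the call and 2 turned. For ALB, AFP and TTR this left every call unchanged outside Plasmax-TE+Fe against Plasmax-TE and the sign of TTR in Plasmax-TE+Fe against Plasmax. Of 96 values of the 6 ratios 95 stayed on their side. The median of all genes moved by less than 0.1 under any scaling. Depth limits TTR most, with 319 counts in its lowest library.

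In Plasmax-TE+Fe against Plasmax-TE, ALB became called with library size alone (-0.46), library sizes without the 20 most abundant genes (-0.47), DESeq2 (-0.47) and the library-number block (-0.47), and AFP with DESeq2 (-0.61) and the library-number block (-0.62). Leaving out 1 library gave -0.51 to -0.41 for ALB and -0.67 to -0.50 for AFP. With the replicate block, ALB had -0.47 and AFP -0.61, neither called, and that block changed no other call of the 4 genes. RBP4 became called in Plasmax-TE against EMEM with library size alone (0.48), without the 20 most abundant genes (0.47), DESeq2 (0.43), the library-number block (0.43) and only the 6 libraries compared (0.44), and in Plasmax-TE+Fe against EMEM with library size alone (0.38) and the library-number block (0.33). It did so in Plasmax against EMEM with the library-number block (-0.32), and in Plasmax-TE+Fe against Plasmax it lost its call with only the 6 libraries compared (0.64). Leaving out 1 library gave RBP4 -0.40 to -0.18 in Plasmax against EMEM, 0.37 to 0.51 in Plasmax-TE against EMEM and 0.52 to 0.73 in Plasmax-TE+Fe against Plasmax, and TTR -0.13 to 0.055 in that last comparison, with reversed signs at 0.055 and 0.040. The cause was not tested.

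Leaving out all 3 libraries that stood apart was added after seeing the data. It made calls of ALB (-0.49) and AFP (-0.63) in Plasmax-TE+Fe against Plasmax-TE and of RBP4 in Plasmax (-0.41), Plasmax-TE (0.42) and Plasmax-TE+Fe (0.33) against EMEM, and ended that of the AFP to TTR ratio (adjusted exact permutation p = 0.12). Called genes became 241 instead of 27 (Plasmax-TE+Fe against Plasmax-TE), 278 instead of 126 (Plasmax-TE+Fe against Plasmax), 1123 instead of 503 (Plasmax-TE against EMEM) and 2090 instead of 1009 (Plasmax-TE+Fe against EMEM).

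Other counts of called genes moved by over 1.5 times as follows. With the library-number block they were 152 instead of 27 (Plasmax-TE+Fe against Plasmax-TE), 372 instead of 126 (Plasmax-TE+Fe against Plasmax), 1859 instead of 1176 (Plasmax-TE against Plasmax), 829 instead of 503 (Plasmax-TE against EMEM) and 1569 instead of 1009 (Plasmax-TE+Fe against EMEM). Of Plasmax-TE+Fe against Plasmax-TE, DESeq2 gave 71, leaving out both Plasmax-TE+Fe replicate 2 and Plasmax-TE replicate 1 gave 99 and the 6 libraries compared 0 (776 at an unadjusted p under 0.05). Of Plasmax-TE+Fe against Plasmax, the 6 libraries compared gave 77. Leaving out 1 library gave 0 to 229 in Plasmax-TE+Fe against Plasmax-TE (549 to 981 at an unadjusted p under 0.05 where edgeR called 0), 31 to 170 in Plasmax-TE+Fe against Plasmax, 477 to 1577 in Plasmax-TE against Plasmax, 259 to 678 in Plasmax-TE against EMEM and 606 to 1224 in Plasmax-TE+Fe against EMEM. Of 1152 counts over the related lists, most of them small, 165 moved, 65 up and 100 down.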
